A study of Mus musculus with 37 samples.

Results

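The embryos described here are the 12 tailbud libraries with the most embryonic globin RNA and the 12 with the least, out of 37 sequenced libraries. They were chosen by measured values. Each embryo was given a globin score, log2(1 + the summed counts per 1000000 (CPM) of Hba-x, Hbb-bh1 and Hbb-y), where CPM is a gene's count divided by the library's total count and multiplied by 1000000. The 12 highest scores form the high group, the 12 lowest the low group, and 13 embryos lie between them. Because these 3 genes chose the groups, their values are a description and carry no test. Each library is the polyA RNA of the dissected tailbud of 1 C57BL/6/Cast F1 mouse embryo of E8-8.5 with 6 to 11 somites, as far as the labels say, and the tissue was cut just behind the last formed somite. The 21 control embryos, called Smchd1wt here, carried a floxed maternal allele and an intact paternal allele of Smchd1 (Smchd1 fl/+). The 16 Smchd1matΔ embryos were del/+ and came from mothers in which Cre, driven by the promoter of the mouse mammary tumour virus (MMTV-Cre) and active in the oocyte, had deleted Smchd1, which encodes a chromatin protein of gene silencing. The high group held 8 Smchd1wt and 4 Smchd1matΔ embryos, and the low group 7 and 5. No group had been dissected or sorted for blood, so the scores are a property of the libraries as collected.

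At this age the first red cells of the mouse are primitive erythroblasts. They arise in blood islands of the extraembryonic yolk sac, enter the embryo once the heart beats, and are still nucleated and rich in RNA. They make embryonic haemoglobin from ζ-globin, encoded by Hba-x, with the β-like chains βh1 and εy, encoded by Hbb-bh1 and Hbb-y, whereas Hbb-bs and Hbb-bt encode the adult β chains. GATA1, TAL1 and KLF1 are the transcription factors best known for switching on globin, haem and red cell membrane genes, GATA1 through GATA motifs and KLF1 through CACCC boxes. In whole tissue such as this, fewer cells of a type and less RNA of each cell cannot be told apart.

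To show what regulatory sequence the genes of this comparison carry, 4 promoters are printed: that of Hbb-y, which is part of the score, and those of the red cell factors Gata1 and Klf1 and of Alas2, the first enzyme of haem synthesis in red cells, which were all higher in the high group. Each stretch is taken from RefSeq (build GRCm38.p6), reads 5′ to 3′ on the strand of the gene, begins 250 bases before the RefSeq start of transcription, and stops before the first base that GENCODE places in an exon of the gene. Capitals mark GATA motifs (GATAA or GATAG with an A or a T before it) and CACCC-type boxes (CCNCNCCC, where N is any base) on either strand. The Hbb-y stretch is chr7:103853217-103853457 (minus strand), that of Gata1 is chrX:7967911-7968160 (minus strand), that of Klf1 is chr8:84901732-84901927 (plus strand), and that of Alas2 is chrX:150547167-150547374 (plus strand).
Hbb-y: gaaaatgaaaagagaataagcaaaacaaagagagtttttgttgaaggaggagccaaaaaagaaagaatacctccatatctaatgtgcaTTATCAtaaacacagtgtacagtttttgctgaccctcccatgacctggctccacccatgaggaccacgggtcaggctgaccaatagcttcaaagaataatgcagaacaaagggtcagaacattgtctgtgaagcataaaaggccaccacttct
Gata1: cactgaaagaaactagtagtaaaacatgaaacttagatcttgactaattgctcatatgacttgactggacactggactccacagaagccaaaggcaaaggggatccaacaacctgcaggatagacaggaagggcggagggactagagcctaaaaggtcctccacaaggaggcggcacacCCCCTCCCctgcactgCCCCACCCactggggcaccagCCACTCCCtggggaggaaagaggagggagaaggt
Klf1: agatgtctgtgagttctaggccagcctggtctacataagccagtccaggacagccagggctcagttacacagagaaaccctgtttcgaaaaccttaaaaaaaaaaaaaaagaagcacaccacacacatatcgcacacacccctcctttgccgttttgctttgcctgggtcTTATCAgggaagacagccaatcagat
Alas2: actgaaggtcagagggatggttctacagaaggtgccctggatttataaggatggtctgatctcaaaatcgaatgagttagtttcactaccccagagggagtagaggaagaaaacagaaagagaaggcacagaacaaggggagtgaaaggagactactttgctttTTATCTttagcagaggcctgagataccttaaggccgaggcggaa

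The Hbb-y, Klf1 and Alas2 stretches each hold 1 GATA motif and no match to CCNCNCCC. The Gata1 stretch holds 3 matches to CCNCNCCC and no GATA motif. The shorter letters CACCC do occur in the Hbb-y and Klf1 stretches, outside this pattern, and are not marked. Among the 32 genes found higher below, 19 had a promoter in the RefSeq table used here, and in 14 of these, 73.7%, the 250 bases before the start held a GATA motif. The share was 20.8% of the 12364 tested genes with a promoter and 29.7% of all 27025 genes with a promoter. A CACCC-type box stood in 11 of the 19, 57.9%, beside 67.3% of the tested genes and 48.5% of all genes. A match of letters is a description of the sequence and not a bound site.

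The 3 globin genes of the score spanned more than 2 orders of magnitude over these embryos. Hba-x ranged from 187 to 889 CPM in the high group, with a median of 391, and from 1.96 to 37.1 CPM in the low group, with a median of 15.8. Hbb-bh1 ranged from 408 to 2725 CPM, with a median of 839, and from 4.998 to 69.0 CPM, with a median of 31.2. Hbb-y ranged from 70.9 to 1129 CPM, with a median of 299.7, and from 0.839 to 25.0 CPM, with a median of 3.94. The groups did not overlap for any of the 3 genes, as the rule made likely. The summed level was 843 to 4065 CPM in the high embryos, 119 to 768 CPM in the 13 embryos between, and 8.12 to 108 CPM in the low embryos. At the edges of the groups the scores were close: the last embryo of the high group scored 9.72 and the next below it 9.59, and the last embryo of the low group scored 6.77 and the next above it 6.91.

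The score went with stage, so the groups were not balanced in somite number. The median score was 6.70 over the 8 embryos of 6 somites, 6.72 over the 7 of 7 somites and 7.70 over the 5 of 8 somites. It was 9.34 over the 5 embryos of 9 somites, 9.72 over the 7 of 10 somites and 10.1 over the 5 of 11 somites. The high group therefore held 3 embryos of 6 to 8 somites and 9 of 9 to 11 somites, and the low group 11 and 1. Embryos of both groups existed only at 6, 7, 8 and 10 somites, and at each of these stages 1 of the groups was a single embryo. These are the 6-somite Smchd1matΔ replicate 4, the 7-somite Smchd1wt replicate 2 and the 8-somite Smchd1wt replicate 3 in the high group, and the 10-somite Smchd1wt replicate 3 in the low group. The median score was 9.16 in Smchd1wt and 8.29 in Smchd1matΔ embryos, and 8.40 in the 24 females and 8.86 in the 13 males, each with ranges that overlapped almost fully.

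**Figure D1:**
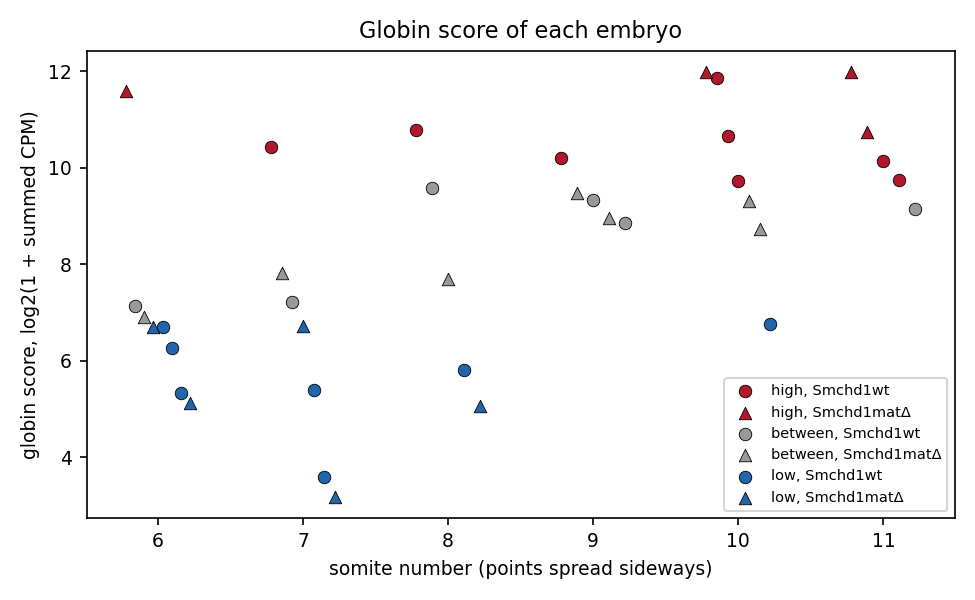
Globin score (log2 of 1 plus the summed CPM of Hba-x, Hbb-bh1 and Hbb-y) of each of the 37 embryos by somite number. Circles are Smchd1wt and triangles Smchd1matΔ embryos, red the 12 high, blue the 12 low and grey the 13 between. The red points at 6, 7 and 8 somites and the blue point at 10 somites are single embryos, and no blue point lies at 9 or 11 somites.

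The libraries of the groups overlapped in the technical measures at hand. Total counts ran from 3064494 to 21105014 in the high group and from 917249 to 19403440 in the low group, with medians of 14480181 and 12170309. The share of counts at the ribosomal RNA locus had medians of 0.517% and 0.397%, and the mitochondrial share 0.919% and 0.904%. The 7-somite Smchd1wt replicate 2, a single embryo of the high group at its stage, was among the shallow libraries with 3064494 counts. The shallowest of all 37 was the 6-somite Smchd1matΔ replicate 3 of the low group, with 917249 counts. A count of 0 in that library says little about genes of low level. Smchd1 itself differed in the direction of the labelled genotypes, with ranges of 104 to 197 CPM in Smchd1wt and 65.3 to 108 CPM in Smchd1matΔ embryos that overlapped a little. It was 149 ± 21.3 CPM (SD, n = 21) in Smchd1wt and 88.6 ± 12.6 CPM (SD, n = 16) in Smchd1matΔ embryos, and its log2 fold change between high and low embryos was −0.08 ± 0.12 (SE) at an adjusted p of 1.

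The comparison of high with low embryos asked which other RNAs went with embryonic globin once somite number (as a factor) and genotype were taken into account. Of 17560 genes tested besides those of the score, 32 (0.182%) were higher in the high embryos at an adjusted p under 0.05 and 0 were lower (edgeR's quasi-likelihood test). Of the 32, 21 belonged to the lists of red cell genes and 11 to no list. Unadjusted, 316 genes were higher and 185 lower at a p under 0.05, the smallest adjusted p of a lower gene was 0.203, and DESeq2's Wald test called 50 higher and 2 lower. The log2 fold changes ran from 0.76 to 5.52 over the 31 of these genes that had a count in the low group, beside a median of −0.0043 over all genes tested. Of the 32, 6 had no count in at least 6 low embryos and so owed their place among the genes tested largely to the high group. Csf2rb, Nxpe2 and Tspan32 also passed the filter on low counts only through the high group. With a filter on the mean of both groups together, at least 10 counts over the 24 embryos (chosen after seeing the data), 29 genes were higher, 28 of them among the 32. A gene can pass this filter through its counts in the high group alone, so it does not remove that dependence. For 18 of the 32, every high embryo was above every low embryo, which held for 0.114% of all genes tested. Within the stages that had both groups, 28 of the 32 had every high embryo above every low embryo of the same stage at 6, 7, 8 and 10 somites, beside 0.433% of all genes tested. The 32 were chosen by the contrast of these same embryos, so both counts follow largely from that choice. They are a description and lend the calls no support. The count of higher genes was 15 without the 8-somite Smchd1wt replicate 3 and 20 without the 7-somite Smchd1wt replicate 2. Summed over the score genes and these 32 genes, the counts came to between 0.106% and 0.472% of a library in the high group and between 0.00967% and 0.0230% in the low group.

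By list, the genes of the red cell membrane and its skeleton moved most often. Of its 18 tested members 11 were higher and 0 lower, with a median log2 fold change of 2.93. Of the 16 tested erythroid transcription factors 4 were higher, with a median of 0.69. Of the 17 genes of haem synthesis and iron uptake 3 were higher, with a median of 0.50, and of the 12 other red cell genes 2 were higher, with a median of 0.67. Of the 5 tested globins outside the score 1 was higher, with a median of 1.76. No member of these lists was lower. The lists were written with earlier results of these data known, so the counts describe them and do not test them.

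**Figure D2:**
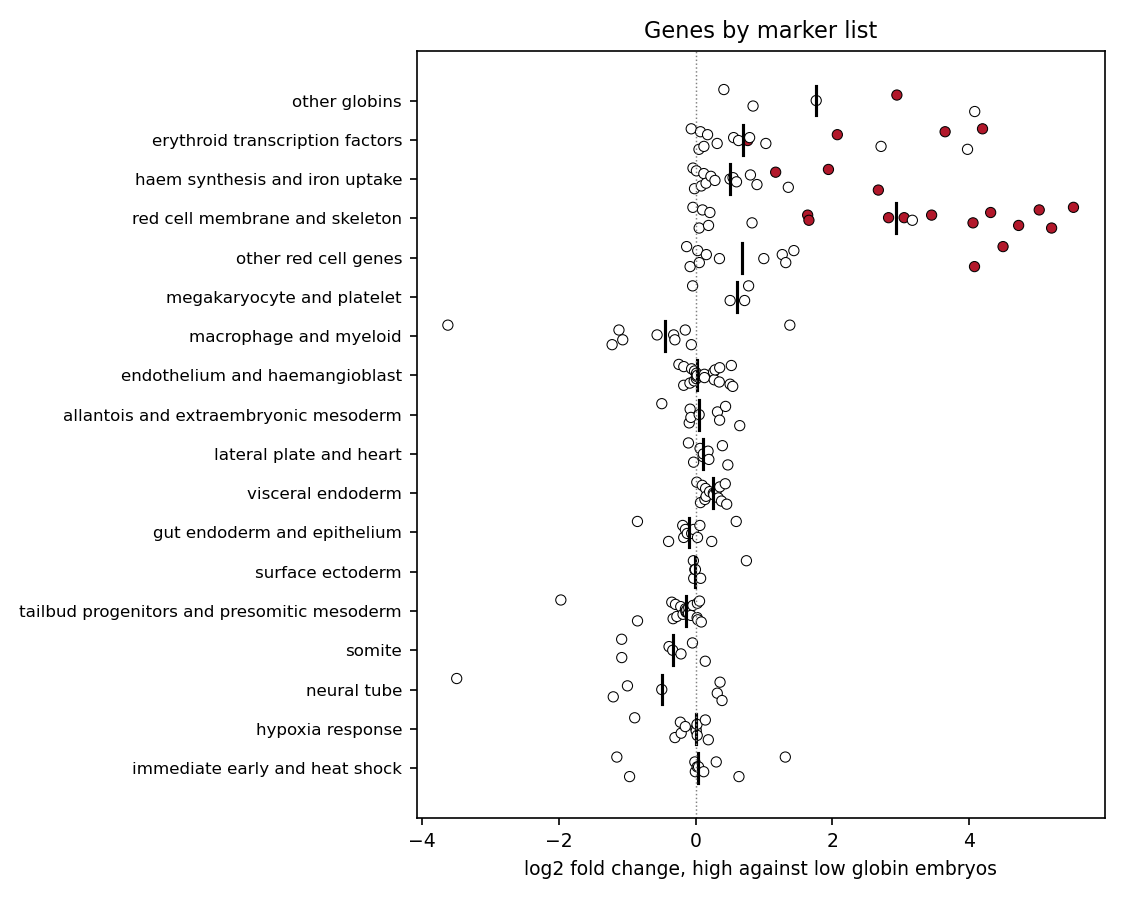
Log2 fold change of each tested list gene, high against low globin embryos, by list (vertical bars, list medians). Filled points passed an adjusted p of 0.05 in edgeR's quasi-likelihood test with somite number and genotype as covariates, and open points did not. All 21 filled points lie in the 5 lists of red cell genes, to the right of 0.

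Among the transcription factors, Gata1, the master regulator of the red cell line, ranged from 2.36 to 13.2 CPM in the high embryos, with a median of 6.07, and from 0 to 1.18 CPM in the low embryos, with a median of 0.125. Its log2 fold change was 4.19 ± 0.51 (SE) at an adjusted p of 4.52e-05. No Gata1 count was found in 3 of the 12 low embryos, among them the shallowest library, with 917249 counts. Klf1, which activates the globin and red cell membrane genes, ranged from 1.18 to 8.01 CPM (median 5.43) against 0 to 1.05 CPM (median 0.288), a log2 fold change of 3.65 ± 0.51 (adjusted p = 0.000363). The groups did not overlap for either gene. Ikzf1, the gene of the lymphoid and blood progenitor factor Ikaros, ranged from 2.84 to 14.3 CPM against 0 to 4.11 CPM, with a log2 fold change of 2.07 ± 0.38 (adjusted p = 0.0102). Tal1, which acts with GATA1 in red cells but is also made by haemangioblasts and early endothelium, changed least of the 32 genes. It ranged from 26.4 to 67.3 CPM (median 46.6) against 15.3 to 42.8 CPM (median 21.9), with overlap, and its log2 fold change of 0.76 ± 0.16 had an adjusted p of 0.039, which rose as far as 0.52 and past the threshold in 11 of the 24 fits that left out 1 embryo and was 0.491 with somite number entered as a number. At 10 somites the single low embryo had 39.96 CPM of Tal1 and the 4 high embryos 39.1 to 67.3 CPM. Nfe2, a factor of globin and platelet gene control, had a log2 fold change of 2.71 ± 0.60 and did not pass the threshold (adjusted p = 0.067). Gfi1b, a repressor of the red cell and platelet lines, had 191 counts over the high and 12 over the low embryos, 9 of which had none. Gfi1b passed the filter on low counts only through the high group, so no fold change or p is given. Nfe2 and Gfi1b lie outside the rule for named genes and were chosen after their values were seen.

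Among the membrane genes, Slc4a1 encodes band 3, the anion exchanger that carries bicarbonate across the red cell membrane. It ranged from 9.10 to 83.6 CPM in the high embryos, with a median of 26.2, and from 0 to 2.33 CPM in the low embryos, with a median of 0.303. Its log2 fold change was 5.02 ± 0.46 (SE) at an adjusted p of 7.76e-07. Within stages, the lone high embryo had 9.10 CPM at 6 somites against 0 to 0.381 CPM in 5 low embryos, 30.0 CPM at 7 somites against 0 to 2.33 CPM in 4, and 21.7 CPM at 8 somites against 0.722 and 1.18 CPM in 2. At 10 somites the 4 high embryos had 14.3 to 75.7 CPM and the low embryo 2.20 CPM. Slc4a1 therefore stood higher at every stage where the groups could be compared.

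Rhag, which encodes the Rh-associated glycoprotein of the membrane, ranged from 0.711 to 6.02 CPM in the high embryos. It had 410 counts over the high embryos and 5 over the low embryos, 10 of which had none. Rhag passed the filter on low counts only through the high group, so no fold change or p is given, and the groups did not overlap.

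Of the genes whose proteins tie the membrane to the spectrin skeleton, some passed the threshold and others did not. Ank1, the gene of ankyrin, which fastens band 3 to spectrin, ranged from 4.18 to 18.6 CPM against 0 to 2.72 CPM (log2 fold change 3.45 ± 0.40, adjusted p = 3e-05). Sptb, the β-spectrin, ranged from 11.4 to 51.2 CPM against 4.36 to 12.05 CPM (1.64 ± 0.26, adjusted p = 0.00171). Sptb thus had reads in every low embryo. Sptb overlaps the gene Plekhg3, Ank1 the gene Gm15816 and Add2 the gene Gm44089 on the other strand, whose reads an unstranded count would add. Ermap (log2 fold change 4.31 ± 0.56), which encodes an erythroblast membrane protein, and Add2 (2.82 ± 0.37), the gene of β-adducin, were also higher, with adjusted p of 0.000114 and 0.000151. Epb42, the gene of protein 4.2, ranged from 1.24 to 9.71 CPM against 0 to 0.846 CPM, and 7 low embryos had no count. Epb42 owed its place among the genes tested largely to the high group, so no fold change or p is given. Gypc, the gene of glycophorin C, rose by 1.66 ± 0.29 on the log2 scale (adjusted p = 0.00658), but with somite number entered as a number its adjusted p was 0.0973. Kel, the gene of the Kell blood group protein, rose by 3.05 ± 0.65 with an adjusted p of 0.0497, which passed the threshold in only 6 of the 24 fits that left out 1 embryo and reached 0.568. Epb41, the gene of protein 4.1, Dmtn, that of dematin, and Tmod1, that of tropomodulin 1, had log2 fold changes of 0.05 ± 0.08, 0.10 ± 0.20 and 0.19 ± 0.14, each with an adjusted p of 1. Epb42, Gypc, Kel, Epb41, Dmtn and Tmod1 are named beyond the 8 of this list that the rule for named genes takes, after their values were seen.

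Haem synthesis and iron supply moved less. Alas2, whose product makes the first precursor of haem in red cells, ranged from 9.23 to 44.4 CPM in the high embryos, with a median of 20.0, and from 1.43 to 14.4 CPM in the low embryos, with a median of 2.95. Its log2 fold change was 2.67 ± 0.47 (SE) at an adjusted p of 0.00662, and the groups overlapped through a single low embryo, the 6-somite Smchd1wt replicate 2, at 14.4 CPM. The other 4 low embryos of that stage reached at most 5.45 CPM, and the high embryo of that stage had 15.5 CPM. The adjusted p of Alas2 rose as far as 0.183 in 3 of the 24 fits that left out 1 embryo, and the gene overlaps Apex2 on the other strand.

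Slc25a37, the gene of mitoferrin 1, which brings iron into mitochondria, ranged from 50.1 to 115 CPM against 26.5 to 46.9 CPM. Its log2 fold change was 1.17 ± 0.18 (SE) at an adjusted p of 0.000985, without overlap between the groups and with the call kept in all 24 fits that left out 1 embryo. Blvrb, the gene of biliverdin reductase B, ranged from 3.02 to 19.0 CPM against 1.83 to 3.83 CPM (1.94 ± 0.34, adjusted p = 0.00669). Tfrc, the transferrin receptor through which most dividing cells take up iron, ranged from 261 to 367 CPM against 212 to 314 CPM, with a log2 fold change of 0.12 ± 0.09 (adjusted p = 1). Over the whole list the summed level was 889.8 to 1268 CPM in the high and 774 to 874 CPM in the low embryos.

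Of the other red cell genes, Trim10, a RING-finger gene of the red cell line, ranged from 2.56 to 14.7 CPM against 0 to 1.18 CPM (log2 fold change 4.08 ± 0.52, adjusted p = 9.93e-05). Hemgn, which encodes the nuclear protein hemogen of blood cells, ranged from 2.22 to 11.0 CPM against 0 to 1.74 CPM, and 8 of the 12 low embryos had no count. Hemgn owed its place among the genes tested largely to the high group, so no fold change or p is given. Epor, the receptor of erythropoietin, ranged from 2.56 to 10.1 CPM against 0.605 to 3.74 CPM, with a log2 fold change of 1.32 ± 0.32 that did not pass the threshold (adjusted p = 0.16). Ahsp was listed but not analysed here.

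The globins outside the score did not move alike. Hba-a1, an adult-type α-globin gene that embryonic red cells also use, ranged from 9.13 to 56.8 CPM against 0 to 8.59 CPM, with a log2 fold change of 2.94 ± 0.58 (SE) at an adjusted p of 0.0196, which passed the threshold in 19 of the 24 fits that left out 1 embryo. Its near-identical copy Hba-a2 ranged from 0.847 to 9.01 CPM against 0 to 5.38 CPM, with a log2 fold change of 1.76 ± 0.73 (adjusted p = 1). How the counting shared reads between these copies is not given in the sources used here, so the split between them is uncertain. The adult β-globins overlapped between the groups taken whole. Hbb-bs ranged from 2.63 to 49.6 CPM (median 7.19) in the high and from 0.714 to 79.7 CPM (median 5.95) in the low embryos, a log2 fold change of 0.84 ± 0.72 (adjusted p = 1). Hbb-bt ranged from 0.429 to 12.7 CPM (median 1.502) and from 0.258 to 25.9 CPM (median 1.80), a log2 fold change of 0.41 ± 0.67 (adjusted p = 1). At 7 somites, however, the single high embryo had 49.6 CPM of Hbb-bs and 12.7 CPM of Hbb-bt, above the 4 low embryos, which had at most 25.3 and 6.16 CPM. The highest level of both adult β-globins over the 24 embryos was in a low embryo, the 6-somite Smchd1wt replicate 2, at a globin score of 5.33. That is also the embryo with the most Alas2 of the low group, and it had no Gata1 count.

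**Figure D3:**
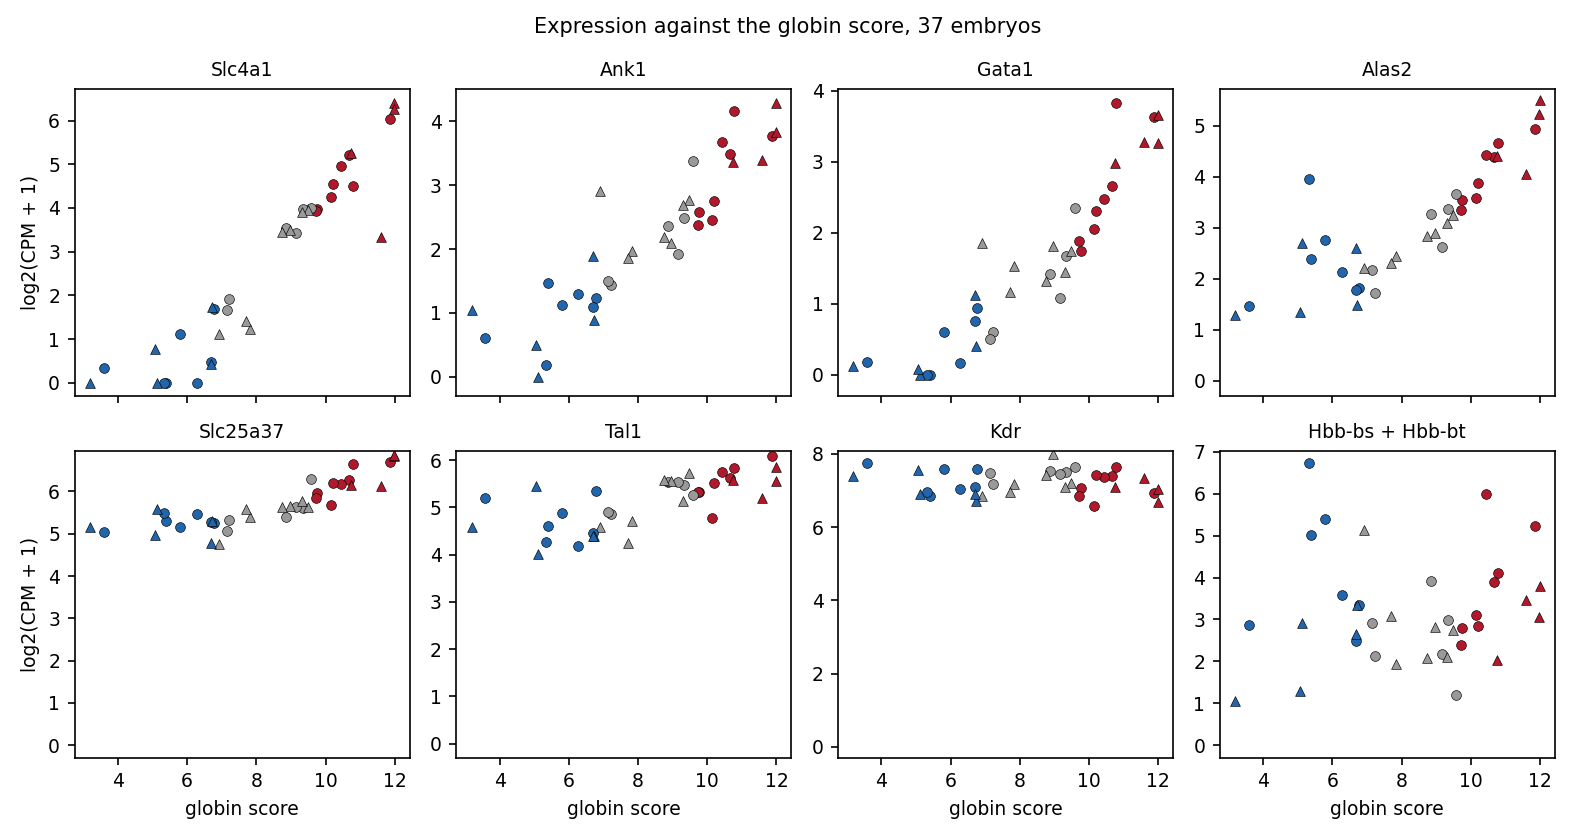
Log2(CPM + 1) of 7 genes and of the summed adult β-globins Hbb-bs and Hbb-bt against the globin score in all 37 embryos (red, high; grey, between; blue, low; circles, Smchd1wt; triangles, Smchd1matΔ). Slc4a1, Ank1 and Gata1 climb from 0 or near it along the score, Slc25a37 and Tal1 climb little from a level that every embryo has, and Kdr and the adult β-globins show no such course.

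Outside the lists, 11 genes were higher. Csf2rb, the shared receptor subunit of several blood cell growth factors, ranged from 2.78 to 12.02 CPM against 0 to 0.673 CPM. It had 961 counts over the high and 36 over the low embryos. Nxpe2, which overlaps Nxpe4 on the other strand, had 368 counts over the high and 27 over the low embryos. Csf2rb and Nxpe2 passed the filter on low counts only through the high group, so no fold change or p is given. Olfr67, annotated as an olfactory receptor gene, ranged from 0.337 to 1.99 CPM against 0 to 0.228 CPM, with 162 counts over the high and 4 over the low embryos, 10 of which had none. It too passed the filter only through the high group, so no fold change or p is given. It lies at chr7:103784594-103791821 on the minus strand, 20703 bases from the adult β-globin gene Hbb-bt and on the same strand as the β-globin genes. Beside the α-globin cluster on chromosome 11, Snrnp25, Rhbdf1, Nprl3 and Mpg had log2 fold changes of 0.21, 0.14, 0.13 and 0.16, each with an adjusted p of 1, and were looked up after Olfr67 was seen.

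Redrum, a long intergenic non-coding RNA, had 224 counts over the high embryos and none in any low embryo. Set against 3 counts over the whole low group, the upper limit that a count of 0 allows, its pooled level was at least 63.1-fold higher. This bound covers counting error alone. It takes no account of somite number, genotype or the spread between embryos. It passed the filter only through the high group, so no p is given. At least 1 high embryo also lacked it. Cited4, a transcriptional co-regulator gene (log2 fold change 3.21 ± 0.57, adjusted p = 0.00759), was higher. The transporter gene Abcg4 had 132 counts over the high and 8 over the low embryos, 9 of which had none. The tetraspanin gene Tspan32, which overlaps Tspan32os on the other strand, had 260 counts over the high and 28 over the low embryos. Tspan32 and Abcg4 passed the filter only through the high group, so no fold change or p is given. Also higher were Tmem56 (1.39 ± 0.26, adjusted p = 0.0114) and Cpne7 (1.77 ± 0.36, adjusted p = 0.0314). Cpne7 lies within the longer gene Gm20388 on the same strand, so whether its count holds reads of that gene is uncertain. The last of these by p, Treml2 (2.30 ± 0.49, adjusted p = 0.048), passed the threshold in 6 of the 24 fits that left out 1 embryo.

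Many of these calls rested on few embryos. In the 24 fits that left out 1 embryo, 14 of the 32 genes kept the call throughout, among them Slc4a1, Ank1, Gata1, Klf1 and Slc25a37. Without the 8-somite Smchd1wt replicate 3, 17 calls were lost, among them Sptb (adjusted p = 0.0621), Redrum, Epb42, Gypc, Alas2, Blvrb and Ikzf1. Without the 7-somite Smchd1wt replicate 2, 13 were lost, among them Hemgn, Epb42, Gypc and Alas2. Without the 10-somite Smchd1wt replicate 3, 10 were lost, among them Alas2, Blvrb, Cited4, Ikzf1, Tmem56 and Hba-a1. Without the 8-somite Smchd1matΔ replicate 1 and without the 6-somite Smchd1matΔ replicate 4, 7 were lost each time, Hba-a1 and Cpne7 in both cases. All of these embryos but the 8-somite Smchd1matΔ replicate 1 were the only member of their globin group at their stage.

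None of the 142 tested genes in the 13 lists of other cell types and responses passed the threshold in either direction, beside 0.182% of all genes tested called higher. A count of 0 among 142 genes is near that share, so it is no result about these cell types. The values below describe the lists. The blood-related lists came first. Of the megakaryocyte and platelet list 4 of 12 genes were tested, with a median log2 fold change of 0.61; Pf4 reached at most 0.326 CPM in the high group, where 5 embryos had no count, and 1.03 CPM in the low group, where 8 had none, and Itga2b ranged from 1.18 to 8.95 CPM against 1.94 to 5.45 CPM (0.50 ± 0.35, adjusted p = 1). The summed level of that list was 4.24 to 13.4 CPM in the high and 4.60 to 7.44 CPM in the low embryos. Of the 10 tested macrophage and myeloid genes 1 had a positive fold change, with a median of −0.44 and summed levels of 13.2 to 29.7 CPM against 11.9 to 37.7 CPM. Csf1r, the macrophage growth factor receptor, ranged from 7.66 to 12.9 CPM against 7.18 to 23.98 CPM (−0.06 ± 0.20, adjusted p = 1), and Ptprc, the pan-leukocyte gene CD45, reached at most 0.213 CPM in the high and 1.97 CPM in the low embryos.

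Endothelium shares its origin with the first blood cells, and none of its markers passed the threshold. The 21 genes of endothelium and haemangioblasts had a median log2 fold change of 0.02. Kdr, the receptor of VEGF that marks the common precursors of blood and vessels, ranged from 94.7 to 197 CPM in the high and from 104 to 214 CPM in the low embryos (log2 fold change 0.01 ± 0.14, adjusted p = 1). Cdh5 (−0.02 ± 0.15) and Pecam1 (−0.06 ± 0.20), genes of endothelial cell contacts, also had an adjusted p of 1.

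Visceral endoderm, the layer that covers the yolk sac and secretes serum proteins, varied widely between embryos, and none of its genes passed the threshold. Its summed level was 49.6 to 4203 CPM in the high and 277 to 5478 CPM in the low embryos, and all 15 tested genes had small positive fold changes, with a median of 0.26. Ttr, the gene of transthyretin, ranged from 0.296 to 223 CPM against 18.2 to 287 CPM (0.15 ± 0.84, adjusted p = 1), and Afp, the gene of α-fetoprotein, from 1.60 to 884 CPM against 48.2 to 818 CPM (0.15 ± 0.95, adjusted p = 1). The standard errors of these genes are wide, so a change of several fold could not have been told from their spread. Tbx4 of the allantois (0.32 ± 0.58) and Krt8 of epithelia (−0.06 ± 0.18) had an adjusted p of 1. The heart gene Nkx2-5 was at 0 in 11 of the 12 low embryos. In the high group only the 6-somite Smchd1matΔ replicate 4 had any, at 0.142 CPM, and the gene was not tested.

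The genes of the tissue itself did not pass the threshold either. The 21 genes of tailbud progenitors and presomitic mesoderm had a median log2 fold change of −0.14. The T gene, brachyury of the tailbud, ranged from 99.7 to 353 CPM against 162 to 318 CPM (−0.22 ± 0.19, adjusted p = 1), so the labelled tissue was evident in both groups. Tbx6 (−0.28 ± 0.22) and Msgn1 (−0.33 ± 0.24), genes of presomitic mesoderm, Tcf15 of somites (−0.21 ± 0.86) and Pax6 of the neural tube (−0.50 ± 0.46) each had an adjusted p of 1. The lists of hypoxia response and of immediate early and heat shock genes had medians of 0.00 and 0.03.

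The score was also used as a continuous measure, since the cut into groups leaves out 13 embryos. In a fit over all 37 embryos with the same covariates, 64 of 16262 genes (0.394%) rose with the score at an adjusted p under 0.05 and 0 fell. These embryos include the 24 above, so the fit is not a separate test. Of the 32 genes, 31 were called here too, the exception being Tal1 (adjusted p = 0.0801), and 33 further genes were called, among them Nfe2, Car2, the carbonic anhydrase gene, and Epor. Among the 5 genes with the smallest p were Slc4a1, Trim10, Ermap and Add2. A slope of 1 means that a gene's RNA changed in proportion to the summed globin RNA. The slope was 0.97 ± 0.05 (SE) for Slc4a1 and 0.86 ± 0.07 for Gata1. It was 0.50 ± 0.06 for Alas2, 0.29 ± 0.04 for Sptb, 0.22 ± 0.03 for Slc25a37 and 0.11 ± 0.03 for Tal1.

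The slopes of the 32 genes thus ran from near proportion with globin to 0.11, and the genes with shallow slopes were those with reads in embryos of little globin. Per kilobase of exon, the 13 genes with a slope of at least 0.8 had mean levels in the low embryos of 0 to 0.218 CPM, with a median of 0.0486. The 9 genes with a slope under 0.4 had 0.136 to 6.14 CPM, with a median of 0.732. Slc25a37 had 6.14 and Tal1 5.80 CPM per kilobase there. Rhag, Olfr67 and Redrum, with steep slopes, were named above as passing the filter only through the high group. Their low level in the low embryos went with that selection. Slope and low-group level come from the same embryos, so this is a description of how the 2 values lie and not a test.

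**Figure D4:**
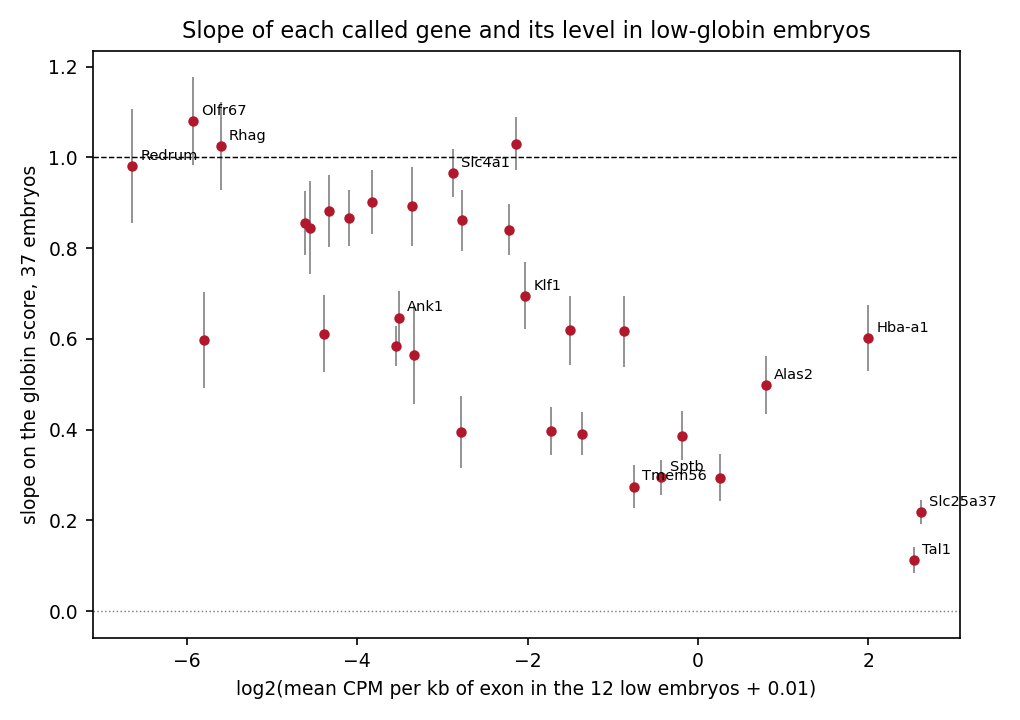
Slope of log2 expression on the globin score over 37 embryos (bars, SE) of the 32 higher genes against the log2 of their mean CPM per kilobase of exon, plus 0.01, in the 12 low embryos. The dashed line marks a slope of 1, in proportion with globin. Slc4a1 lies by it, as do Rhag, Olfr67 and Redrum, which passed the filter on low counts only through the high group. Slc25a37 and Tal1, at the right, lie lowest.

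The 13 embryos in neither group had no part in the choice of the 32 genes. Over these, 29 of the 32 could be tested, and all 29 had a positive slope on the score, beside 51.7% of the 15510 genes tested. At an unadjusted p under 0.05, 21 of the 29 rose, beside 0.819% of all genes tested. No gene passed an adjusted p of 0.05 (edgeR's quasi-likelihood test, 233 genes at an unadjusted p under 0.05, smallest adjusted p 0.0637). Over these embryos (n = 13) the slope was 1.25 for Slc4a1 (p = 2.05e-05), 0.88 for Alas2 (p = 2.05e-05) and 1.01 for Ermap (p = 0.000118), all unadjusted p of the fit over all genes. Rhag (slope 0.82, p = 0.134), Nxpe2 (0.23, p = 0.575) and Treml2 (0.37, p = 0.311) were among the 8 that did not reach it (n = 13). These p-values measure the spread between embryos, with 1 library of each.

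The make-up of the embryonic globin RNA differed between stages. The share of Hbb-y in the summed CPM of Hbb-y and Hbb-bh1 had a median of 6.35% in the embryos of 6 somites, 14.7% in those of 7 and 14.0% in those of 8. It was 28.9% for 9, 28.7% for 10 and 34.7% for 11 somites. The single low embryo of 10 somites had 30.8%, within the 23.1% to 36.5% of its stage, although its globin score was 6.77. The single high embryo of 6 somites had 2.54%, the lowest of all 37, although its score of 11.6 was the 4th highest. Since both genes are part of the score, these shares are a description, and they were chosen for display after the values were seen.

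**Figure D5:**
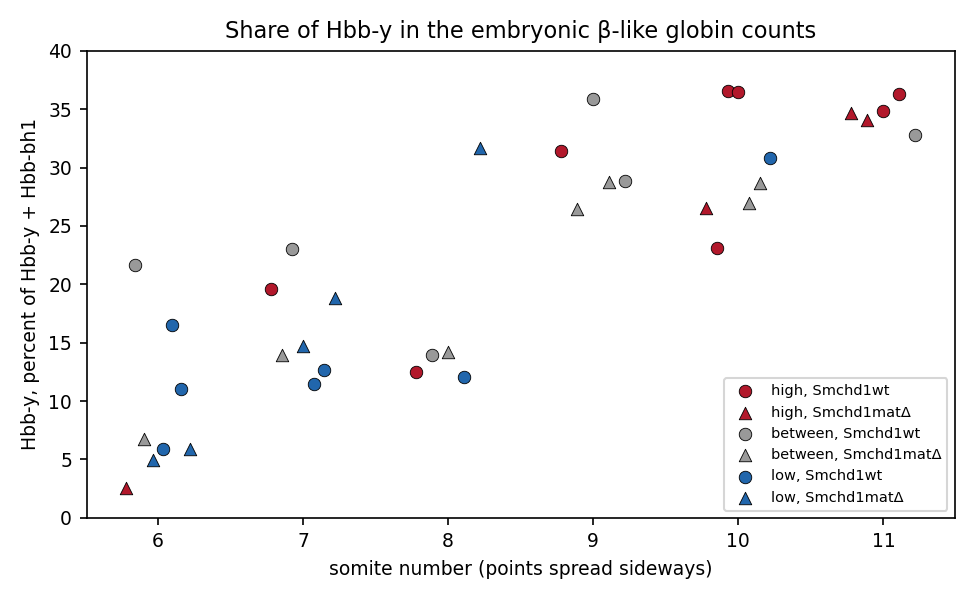
Hbb-y as a percentage of the summed CPM of Hbb-y and Hbb-bh1 in each of the 37 embryos by somite number (red, high; grey, between; blue, low; circles, Smchd1wt; triangles, Smchd1matΔ). Medians go from 6.35% at 6 somites to 34.7% at 11 somites, with red, grey and blue points mixed within stages; the red triangle at 6 somites, at 2.54%, is the lowest.

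That embryo, the 6-somite Smchd1matΔ replicate 4, stood apart within the high group. It had the most Hbb-bh1 of the 12, 2725 CPM, and the least Hbb-y, 70.9 CPM. It also had the least Slc4a1 (9.10 CPM), Rhag (0.711 CPM), Ermap (2.32 CPM) and Tmem56 (9.00 CPM) of the 12. Gata1, at 8.67 CPM, and Trim10, at 8.91 CPM, ranked 4th in it, and Olfr67, at 1.99 CPM, ranked 1st. The other 3 libraries of its stage and genotype had between 33.8 and 119 CPM of summed globin. Without this embryo 28 genes were called, 25 of them among the 32.

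The effect of the globin group was compared between genotypes by an interaction term. No gene passed an adjusted p of 0.05 of 17560 tested (edgeR's quasi-likelihood test), 882 had an unadjusted p under 0.05, and the smallest adjusted p was 0.934. Without a filter on low counts 240 genes were called. Only 4 high and 5 low embryos were Smchd1matΔ, and they met at a single stage, 6 somites. Fitted alone, the Smchd1wt embryos gave 9 higher genes and the Smchd1matΔ embryos 0, with 721 and 879 genes at an unadjusted p under 0.05, and the difference between these counts was not tested beyond the interaction. By stage, the embryos of 6 to 8 somites alone gave 22 higher genes, 21 of them among the 32. The embryos of 9 to 11 somites alone gave 0, with 131 at an unadjusted p under 0.05, and there the low group was a single embryo. With neither somite number nor genotype as a covariate the counts were 253 higher and 203 lower.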

How the data were processed

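Tailbud RNA of 37 embryos was sequenced, with libraries made by a TruSeq mRNA kit that was stranded for some samples and not for others, and which kit each library had is not given in the sources used here. The authors trimmed reads with Trim Galore 0.4.4, aligned them to GRCm38.p6 with HISAT2 2.0.5 and counted reads per gene in SeqMonk, and the deposited values are raw counts. The authors' tables of log2 RPKM of Hox genes and of their own tests were not used. Of 35591 rows, 49 with a repeated gene identifier were left out, 27 symbols stored as calendar dates were set back to gene names, and 35542 genes remained. CPM used the total of all deposited counts of a column, from 917249 to 80666472. Counting error alone is covered by the limit of 3 counts used for a count of 0. Genes were kept by edgeR's filterByExpr (minimum count 10) and tested with its quasi-likelihood test (edgeR 4.0.16 in R 4.3.3, TMM, Benjamini-Hochberg over all genes tested, two-sided, threshold 0.05), with somite number as a factor and genotype as covariates. For the 13 embryos between the groups, somite number entered as a number. The standard error is the log2 fold change divided by the square root of the F value. DESeq2 1.42.0 served as an alternative. The procedure was tested on simulated data.

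The globin groups were set by the score and not by the labels, and the members, the marker lists and the tests were chosen with earlier results of these data known. Genes were named by this rule: the genes of the score, up to 8 called members of each red cell list and up to 4 of each other list, fixed defining genes, the 10 called genes in each direction outside the lists with the smallest p, the 5 called genes with the smallest p of the other fits, and Smchd1. Some genes that the rule takes are not reported here. Of 237 listed genes, 236 had a row. Promoters and annotation came from RefSeq and GENCODE M21 on GRCm38.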

Additional observations from a re-analysis of the deposited data

Results flagged for a closer look

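A library was singled out where, in a group of 4 embryos of the same stage and genotype, the gap between it and the nearest other embryo exceeded 0.829 of the range of the group. This was asked of 7 measures in 4 groups, 28 checks in all, and 10 met it. Chance gives about 1 in 20 only for normally distributed values, which was not tested for these CPM, so the 10 are a description. The measures were chosen after the values were seen, and they are not independent of each other. The summed score globins, 1 of the measures, also chose the globin groups.

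Among the 6-somite Smchd1matΔ embryos, replicate 4 had 3087 CPM of summed score globins where the other 3 had 33.8 to 119 CPM. It also stood apart with 15.5 CPM of Alas2 (others 3.64 to 5.45) and 9.10 CPM of Slc4a1 (others 0 to 1.16). In the same group replicate 1 stood apart with 34.0 CPM of summed Hbb-bs and Hbb-bt (others 5.30 to 10.00). Replicate 1 is the library with the largest share of counts at the ribosomal RNA locus, 2.77%, and the part of that in its globin values was not tested.

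Among the 7-somite Smchd1wt embryos, replicate 2 had 1387 CPM of summed score globins where the others had 11.0 to 148 CPM. It also had 20.6 CPM of Alas2 (others 1.74 to 4.22), 4.57 CPM of Gata1 (others 0 to 0.509) and 30.0 CPM of Slc4a1 (others 0 to 2.80). Its depth was 3064494 counts.

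Among the 6-somite Smchd1wt embryos, replicate 2 had 105.5 CPM of summed Hbb-bs and Hbb-bt where the others had 4.64 to 11.0 CPM, and 14.4 CPM of Alas2 where the others had 2.44 to 3.51 CPM. Its summed score globins were 39.2 CPM, within the low group.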

How the results depend on the processing

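Counts below leave out the genes of the score. The 32 higher and 0 lower genes became 57 higher and 2 lower (59) without a filter on low counts, 253 and 203 (456) with no covariates, and 50 and 2 (52) with DESeq2's Wald test. They became 18 without libraries under 4000000 counts, 9 in Smchd1wt alone, 0 in Smchd1matΔ alone, 0 at 9 to 11 somites alone, 64 for the slope over all 37 embryos and 0 for the slope in the 13 others. The interaction with genotype went from 0 to 240 genes without the filter. Leaving out each of the 24 embryos gave 15 to 36 genes: 15 without the 8-somite Smchd1wt replicate 3, 20 without the 7-somite replicate 2 and 22 without the 10-somite replicate 3, all Smchd1wt. Each of the 3 was the only embryo of its globin group at its stage. In these fits 14 of the 32 genes kept the call throughout. With DESeq2's size factors, somite number as a number, sex as a covariate, the score genes removed, the library rich in ribosomal RNA counts left out, or a minimum mean of 10 counts (added after seeing the data), 29 to 38 genes were called, 28 to 32 of them among the 32. Of 2077 values of named genes under the alternatives, 1862 kept their side of the threshold, 211 called values lost it, 4 gained it and 0 reversed. The cause of these changes was not tested.

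Replicate numbers were shared between genotypes but marked no common litter or day in the labels. Of 16 same-numbered pairs at a stage, 4 had deviations from their group means that correlated above 0.1, with a range of −0.28 to 0.64, so the numbers were not taken as pairs. With the replicate block 37 genes were called, 31 of them among the 32, the 37-embryo slope gave 72, and the slope in the 13 embryos and the interaction stayed at 0 (the last added after seeing the data). Depth limits the genes named above by few reads in the low embryos, and 6 of the 32 had no count in at least 6 of those.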
